A study of Equus caballus with 32 samples.

Results

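The genes described here are 10 enzymes and helper proteins that clear superoxide and peroxides in the cell. They are the superoxide dismutases SOD1 and SOD2, catalase (CAT), glutathione peroxidase 1 (GPX1), the peroxiredoxins PRDX1, PRDX2, PRDX3, PRDX5 and PRDX6, and thioredoxin (TXN). Members were chosen by name, as all probes outside the array's controls that the scanner files label with 1 of these 10 symbols. The rule found 25 probes on 41 spots, of 43987 probes in all, and all 25 were among the 26379 probes tested. SOD2 had 11 probes, PRDX1, PRDX6, TXN, GPX1 and CAT had 2 each, and PRDX2, PRDX3, PRDX5 and SOD1 had 1 each. A gene is represented by its brightest probe over all arrays, and every probe is accounted for.

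Gene expression was measured in whole blood of 32 Welsh Pony mares, sampled 30 days after weaning, with 1 single-colour Agilent array per mare. Weaning was progressive for 16 mares and brutal for 16 mares. The labels describe neither procedure further and give no ages, and no group of mares without weaning is included. The arrays lie on 4 slides, each with 4 mares of each group. A p-value for the groups sets their difference against the spread between mares, and the number of arrays limits the precision. With 1 array per mare, that spread also holds the variation of labelling and hybridisation.

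Superoxide dismutases turn superoxide into hydrogen peroxide, which catalase, glutathione peroxidases and peroxiredoxins then remove. Most peroxiredoxins are recycled by thioredoxin, and glutathione peroxidases draw on glutathione. In blood these enzymes protect haemoglobin and red cell membranes, and they operate in leukocytes that make superoxide and peroxide against microbes.

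Values are log2 signals relative to the 75th percentile signal of the same array, and a value of 0 means a signal equal to that percentile. Before that scaling the 75th percentile ran from 381.5 over a median of 539.5 to 646 intensity units on progressive arrays. On brutal arrays it ran from 339.5 over a median of 488 to 607.9. All 25 probes stood well above background on all 32 arrays, and none of their spots carried an outlier mark. One array, progressive 16, stands apart: it held 851 of the 2483 spots marked as outliers over all arrays. It had the lowest value of all 32 mares for PRDX1 (3.95), PRDX2 (1.05) and GPX1 (5.36), and the highest for PRDX6 (3.79). Where a result was also run without it, and that moved a value by over 1.5 times or ended a call, the value without it is given as well. The relations to array brightness were not computed without it.

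The probe sequences are those of the scanner files, written 5′ to 3′. For SOD2, the array carries 3 pairs of 60-base probes that differ by 1 base, shown in capitals, because each pair reads the same transcript stretch with a G or an A at the same place. Positions are counted from 1 at the 5′ end of the probe, and the base of the first-named probe is given first.
A_69_P000613: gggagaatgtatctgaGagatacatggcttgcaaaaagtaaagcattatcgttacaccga
A_69_P004148: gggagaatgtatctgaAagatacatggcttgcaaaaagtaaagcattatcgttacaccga
A_69_P000614: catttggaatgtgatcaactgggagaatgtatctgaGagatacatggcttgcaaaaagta
A_69_P004149: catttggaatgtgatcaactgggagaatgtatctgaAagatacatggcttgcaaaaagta
A_69_P000615: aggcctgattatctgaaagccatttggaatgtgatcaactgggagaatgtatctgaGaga
A_69_P004150: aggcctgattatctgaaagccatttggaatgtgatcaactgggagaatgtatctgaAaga

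The pairs differ by G17A, G37A and G57A. With the differing base at position 17, the G probe gave the higher signal in every mare, by 1.55 ± 0.06 on the log2 scale in progressive mares and 1.54 ± 0.05 in brutal mares (SD, n = 16 each), a 2.92-fold ratio over all 32 mares. With the base at position 37 the difference was 0.78 ± 0.06 in progressive mares and 0.77 ± 0.06 in brutal mares, a 1.71-fold ratio. With the base at position 57, near the end of the probe, the difference was -0.09 ± 0.04 in progressive mares and -0.08 ± 0.05 in brutal mares. The difference thus shrank as the base moved from the 5′ part of the probe to its end. It was nearly the same in each mare: over the 32 mares it ran from 1.46 to 1.68 at position 17, from 0.68 to 0.93 at position 37 and from -0.16 to -0.00 at position 57. These are differences in hybridisation signal between probes, not in transcript level, and no mare stood in a separate class. Which base each mare's SOD2 carries was not tested.

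**Figure D1:**
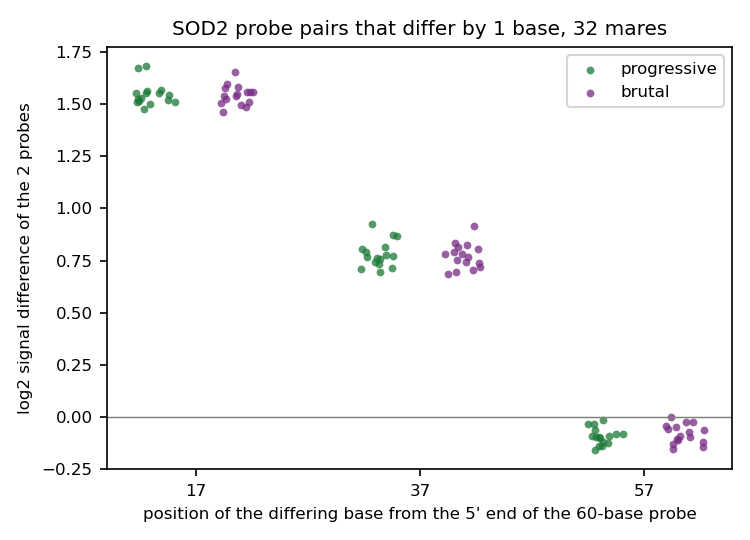
Log2 signal difference within each pair of SOD2 probes that differ by 1 base (G probe minus A probe, vertical axis), against the position of that base from the 5′ end (horizontal axis), for each of 16 progressive (green) and 16 brutal (purple) mares. The difference is 1.46 to 1.68 at position 17, 0.68 to 0.93 at position 37 and -0.16 to -0.00 at position 57, and the groups overlap at each.

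A second pair is shown because its probes share sequence. The PRDX6 probes overlap by 21 bases, in capitals, and so are not separate measurements of the transcript.
A_69_P073616: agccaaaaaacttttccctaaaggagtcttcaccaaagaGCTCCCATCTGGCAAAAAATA
Oligo-301: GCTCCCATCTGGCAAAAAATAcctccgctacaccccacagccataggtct

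The probes that alone carry the values of PRDX5, PRDX2 and PRDX3, and the brighter of the GPX1 probes, read as follows.
PRDX5: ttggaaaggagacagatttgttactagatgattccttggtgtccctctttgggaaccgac
PRDX2: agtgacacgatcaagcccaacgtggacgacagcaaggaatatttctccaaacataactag
PRDX3: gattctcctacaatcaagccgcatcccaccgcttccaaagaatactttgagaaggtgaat
GPX1: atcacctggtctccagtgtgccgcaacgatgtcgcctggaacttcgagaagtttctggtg

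None of the 10 genes differed between progressive and brutal mares past the threshold, an adjusted p of 0.05 in limma. Their adjusted p values were at least 0.996, and 0 of the 10 had an unadjusted p under 0.05. Over all 26379 tested probes limma called 0 (0%), while 728 (2.76%) had an unadjusted p under 0.05. The difference, progressive minus brutal, was below 0 for 8 of the 10 genes, with a median of -0.07 on the log2 scale. Without the array progressive 16 it was below 0 for 7 of the 10, with a median of -0.04. For all tested probes 55.7% lay below 0 and the median was -0.01, and without that array 52.6% lay below 0. On slide 2 alone 4 of the 10 genes lay below 0, against 51.7% of all tested probes, so the direction is not shared by all slides.

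SOD2, the manganese superoxide dismutase of mitochondria, had the largest SD between mares (0.53 over all 32). Progressive mares ran from 4.31 over a median of 5.32 to 5.95, and brutal mares from 4.47 over a median of 5.58 to 6.26. The difference was -0.24 (SE 0.18, unadjusted p = 0.186), with a 95% interval from -0.60 to 0.12. The groups overlapped, although 4 brutal mares lay above every progressive mare and 2 progressive mares below every brutal mare. By slide the difference ran from -0.62 on slide 4 to 0.03 on slide 2. Its representing probe is a custom oligo that the files annotate with the mouse gene, but all 11 SOD2 probes ranked the mares alike, with Pearson r from 0.983 to 0.998 over 55 pairs of probes. The 11 differences lay between -0.27 and -0.24. Several of these probes overlap or share their sequence, so they are not independent.

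SOD1, the copper-zinc superoxide dismutase of the cytosol, was measured by 1 probe. Its level ran from 3.71 over a median of 4.33 to 4.90 in progressive mares, and from 3.51 over a median of 4.34 to 5.01 in brutal mares. The groups overlapped over nearly the whole range, with a difference of -0.04 (SE 0.13, p = 0.745). Under quantile normalisation the difference was 0.0017, so its direction turned, and without the array progressive 16 it was -0.01.

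Catalase, which splits hydrogen peroxide without a reducing partner and is abundant in red cells, was the least variable of the 10 genes, with an SD of 0.19 over all mares. Progressive mares ran from 1.76 over a median of 1.99 to 2.36, and brutal mares from 1.49 over a median of 1.96 to 2.24. It was 1 of 2 genes above 0, at 0.08 (SE 0.07, p = 0.295). On this probe 4 brutal mares lay below every progressive mare. On its second probe, which gave 0.10 (SE 0.08), no brutal mare did, and 1 progressive mare lay below every brutal mare. The CAT probes had an r of 0.828, lower than the probe pairs of the other genes.

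GPX1, the selenium-dependent glutathione peroxidase of the cytosol, reached 6.25 at most in progressive mares, from a lowest value of 5.36 and a median of 5.82. In brutal mares it ran from 5.58 over a median of 5.83 to 6.34. On this probe the 4 lowest mares were all progressive, progressive 16 among them, and the difference was -0.11 (SE 0.09, p = 0.216). It lay below 0 on 4 of 4 slides. The other GPX1 probe gave -0.09 (SE 0.10), lay below 0 on 3 of 4 slides and had 2 progressive mares below every brutal mare.

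**Figure D2:**
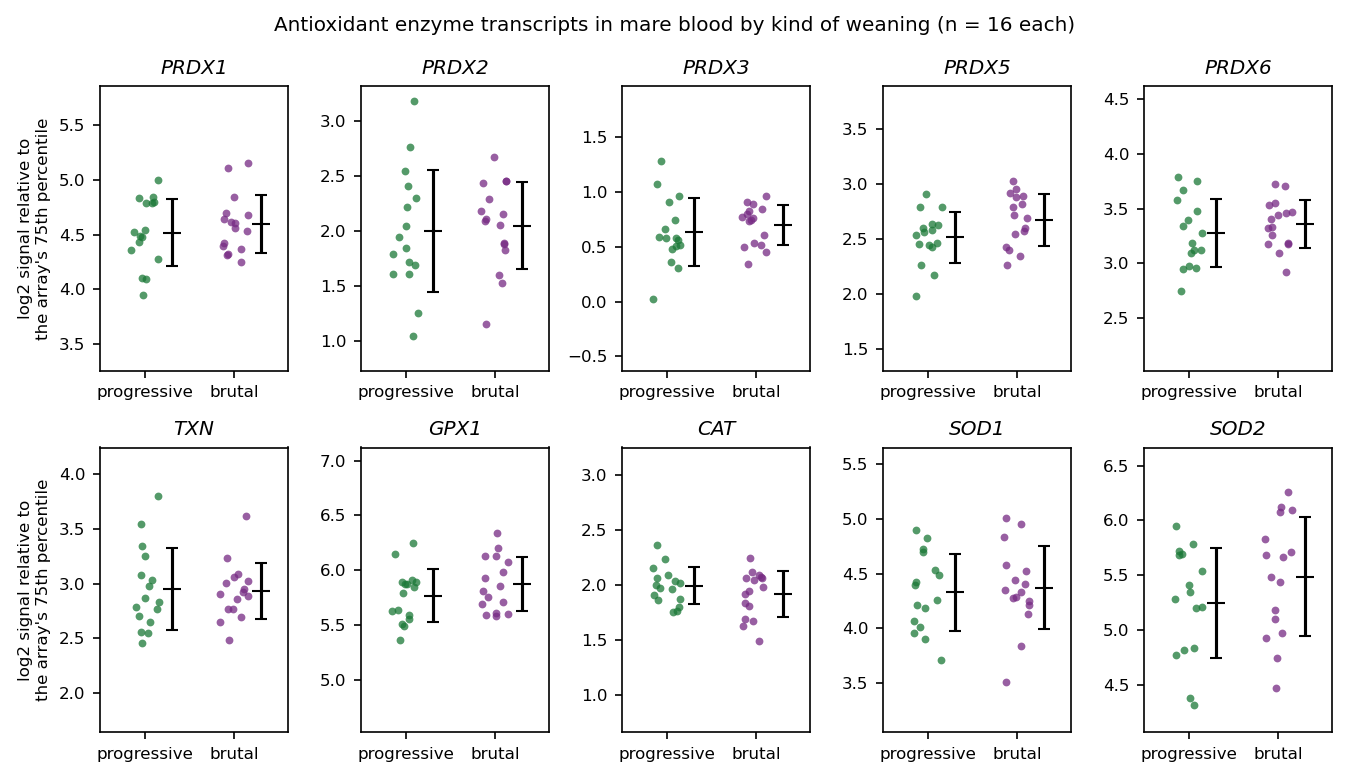
Log2 signal relative to the array's 75th percentile (vertical axis) for the brightest probe of each of the 10 genes in 16 progressive (green) and 16 brutal (purple) mares, 1 point per mare, with the mean and SD as black bars. The panels span equal log2 ranges. The groups overlap for every gene, SOD2 and PRDX2 have the largest SD and CAT the smallest.

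The peroxiredoxins reduce peroxides with a reactive cysteine. PRDX1 and PRDX2 work in the cytosol, and PRDX2 is one of the most abundant proteins of red cells. PRDX1 ran from 3.95 over a median of 4.50 to 5.00 in progressive mares, and from 4.25 over a median of 4.58 to 5.15 in brutal mares. Its difference was -0.07 (SE 0.10, p = 0.466), and -0.04 without the array progressive 16, and the second probe gave -0.02 (SE 0.10). Among the representing probes PRDX2 had the widest range, 4.42-fold between the lowest and the highest mare, both of them progressive. Other SOD2 probes had ranges up to 4.97-fold. PRDX2 ran from 1.05 over a median of 1.89 to 3.19 in progressive mares, and from 1.15 over a median of 2.10 to 2.67 in brutal mares, a difference of -0.05 (SE 0.17, p = 0.756). Without the array progressive 16 that difference was 0.0117.

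PRDX3, the mitochondrial peroxiredoxin, ran from 0.02 over a median of 0.58 to 1.28 in progressive mares, and from 0.34 over a median of 0.76 to 0.96 in brutal mares. The brutal mares lay inside the range of the progressive mares, and the difference was -0.06 (SE 0.09, p = 0.482), or -0.04 without the array progressive 16. Slides disagreed, with 0.15 on slide 1 and -0.30 on slide 3.

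PRDX5, an atypical peroxiredoxin found in mitochondria, peroxisomes and cytosol, had the smallest p of the 10 genes. Progressive mares ran from 1.98 over a median of 2.55 to 2.91, and brutal mares from 2.27 over a median of 2.70 to 3.03. The difference was -0.16 (SE 0.08, unadjusted p = 0.0645, limma adjusted p = 0.996), with a 95% interval from -0.33 to 0.01. It lay below 0 on 4 of 4 slides, from -0.34 to -0.09. The groups still overlapped, with 3 progressive mares below every brutal mare and 3 brutal mares above every progressive mare.

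PRDX6, which has a single reactive cysteine and also acts on phospholipids, ran from 2.75 over a median of 3.23 to 3.79 in progressive mares. Brutal mares ran from 2.92 over a median of 3.37 to 3.73. The difference was -0.08 (SE 0.10, p = 0.392), and the overlapping second probe gave -0.06 (SE 0.09). The lowest mare and the highest mare were both progressive.

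TXN, the small protein that returns electrons to peroxiredoxins, ran from 2.46 over a median of 2.85 to 3.80 in progressive mares, and from 2.48 over a median of 2.91 to 3.62 in brutal mares. Its difference was 0.02 (SE 0.11, p = 0.867), with the brighter of its probes on 5 spots of each array. The second probe gave -0.01 (SE 0.12), so the direction depends on the probe.

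For the 7 representing probes with more than 1 spot per array, the SD between mares was 3.09 to 7.99 times the SD between spots of an array. Spots of an array share its labelling and hybridisation, so that ratio covers spotting error only. Slides did not differ past the threshold for any of the 10 genes in limma's F-test, against 2 of all tested probes (0.00758%). The smallest unadjusted p over slides was 0.0895, for PRDX2. In the same F-test it was 0.0471 when scaled by detected probes only, 0.0490 under quantile normalisation and 0.0484 with the deposited series table. The adjusted p of these F-tests was at least 0.62.

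The other genes of these systems were taken from a list of 46, of which 42 are on the array and 36 were tested. The list holds enzymes of glutathione and thioredoxin metabolism, regulators such as NFE2L2 and KEAP1, haem oxygenases and sestrins. None passed the adjusted threshold in limma and 1 had an unadjusted p under 0.05. Of the 36, 27 lay below 0 and 9 above, with a median of -0.06, against 55.7% below 0 over all probes. On slide 1 alone 17 of 36 lay below 0, against 45.9% of all probes. Without the array progressive 16 it was 23 of 36, against 52.6% of all probes.

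Among the genes below 0 was GSTP1, a glutathione S-transferase. It ran from 4.63 over a median of 5.13 to 5.82 in progressive mares and from 4.76 over a median of 5.46 to 5.83 in brutal mares, a difference of -0.23 (SE 0.12, unadjusted p = 0.0735, limma adjusted p = 0.996). For KEAP1, which holds NFE2L2 in check, the difference was -0.12 (SE 0.07, p = 0.0957). The 3 with the smallest p above 0 were the sestrin SESN1 at 0.30 (SE 0.17, p = 0.0836), the methionine sulfoxide reductase MSRB2 at 0.18 (SE 0.12, p = 0.145) and GPX7 at 0.11 (SE 0.13, p = 0.434). In none of them did the groups separate.

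Whole blood mixes cell types, and in such samples fewer cells of a type and less RNA per cell cannot be told apart. The level of each gene was therefore set beside scores for 7 blood cell types, each the mean z value of that type's measured markers over the 32 arrays. Defining markers of 6 types (HBB, CSF3R, CD3E, CD79A, CD14 and PF4) stood well above background on all 32 arrays. Of 6 markers of other tissues, only the muscle creatine kinase CKM was tested, and 5 (ALB, APOA1, KRT5, KRT14 and MYH7) were not bright enough.

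No marker of the 7 lists passed the adjusted threshold between the groups in limma, and the difference of the mean scores was not tested. The neutrophil score, from 17 of 20 markers, ran from -1.45 to 1.15 in progressive mares and from -1.24 to 0.93 in brutal mares, and the difference of the means was -0.38. The platelet score, from 8 of 15 markers, ran from -1.64 to 1.002 in progressive mares and from -0.80 to 1.49 in brutal mares, a difference of -0.60. The erythroid score, from 8 of 22 markers, ran from -0.89 to 1.33 in progressive mares and from -1.01 to 1.86 in brutal mares, a difference of -0.42. The monocyte score differed by -0.17, the NK and cytotoxic score by -0.29, the T cell score by 0.04 and the B cell score by 0.09. Within a group the SD of the 7 scores ran from 0.56 to 0.82 in progressive mares and from 0.57 to 0.93 in brutal mares. With the erythroid, neutrophil, platelet and T cell scores as covariates, 3 of the 10 genes lay below 0, the difference of PRDX5 was 0.0027 and that of SOD2 was -0.0042. Of all tested probes 52.6% lay below 0 in that fit. The part of cell composition in the differences was not tested beyond this fit.

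Of 70 relations between a gene and a score, 20 (28.6%) passed an adjusted permutation p of 0.05, all of them positive, and 16 without the array progressive 16. The weakest of these had r = 0.44. Of the relations of all other tested probes to the same scores 18.7% were at least that large in either direction, and 11.8% were positive. That share was computed after the data were seen. SOD2 followed the neutrophil score, with Pearson r = 0.65 (permutation p = 0.00011, adjusted p = 0.00315) and Spearman rho = 0.54 (p = 0.00172, adjusted p = 0.0138). Without the 2 mares farthest from the median score r was 0.55. It was 0.79 in progressive mares and 0.45 in brutal mares, and by slide it ran from 0.09 to 0.81. Among the other tested probes 7.84% had an r with the neutrophil score at least as high. SOD2 also followed the monocyte score (r = 0.51, adjusted permutation p = 0.0215).

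PRDX5 followed the neutrophil score at r = 0.61 (permutation p = 0.00017, adjusted p = 0.00315; rho = 0.53, p = 0.00202, adjusted p = 0.0141), and r was 0.48 without the 2 mares farthest from the median. Within the groups r was 0.57 in progressive mares and 0.58 in brutal mares, and by slide it ran from 0.27 to 0.65, while 9.18% of the other probes had an r as high. The monocyte score (r = 0.60) and the platelet score (r = 0.59) were nearly as close to it. PRDX6 was closest to the platelet score, at r = 0.67 (permutation p = 2e-05, adjusted p = 0.0014; rho = 0.66, p = 7e-05, adjusted p = 0.0028) and r = 0.55 without the 2 farthest mares. Here r was 0.77 in progressive mares and 0.57 in brutal mares, from 0.40 to 0.98 by slide, and 0.404% of the other probes had an r as high.

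These 3 relations passed the threshold under each of 4 other ways of scaling the arrays, with r from 0.57 to 0.66 for SOD2, from 0.52 to 0.64 for PRDX5 and from 0.61 to 0.72 for PRDX6. Without the array progressive 16, which had a high PRDX6 value at a platelet score of -0.33, r was 0.74 for PRDX6, 0.66 for SOD2 and 0.64 for PRDX5.

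**Figure D3:**
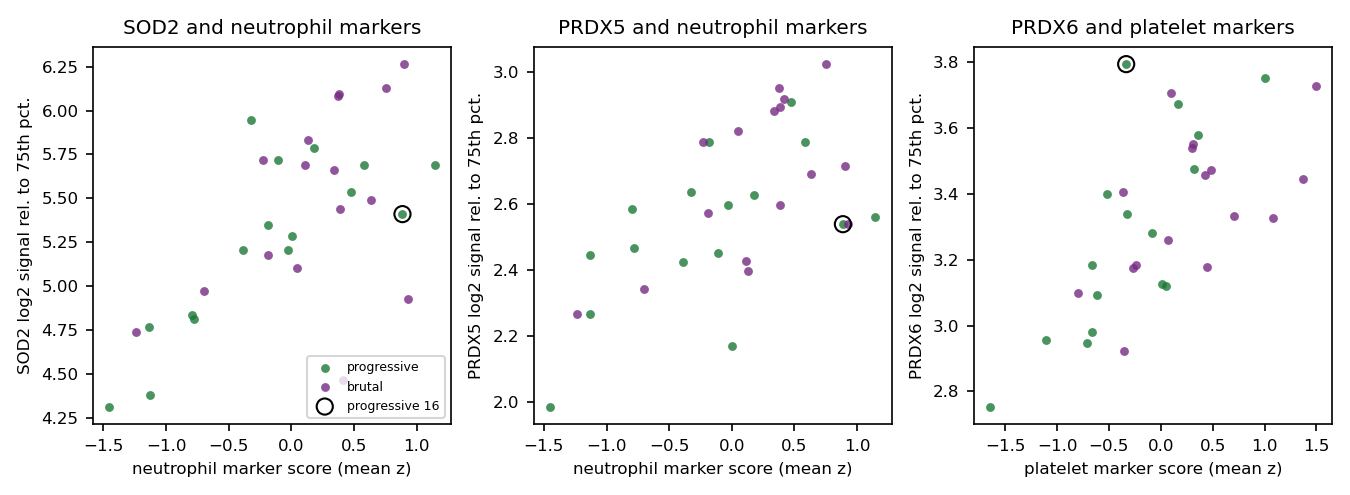
Log2 signal of SOD2, PRDX5 and PRDX6 (vertical axes, relative to the array's 75th percentile) against the neutrophil or platelet marker score (horizontal axes, mean z value) for 16 progressive (green) and 16 brutal (purple) mares, with the array progressive 16 circled. The level rises with the score in each panel (r = 0.65, 0.61 and 0.67), and progressive 16 lies above the other mares for PRDX6.

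SOD2, PRDX6 and PRDX3 kept their closest score under all 4 other scalings, PRDX5 under 3 of them. PRDX1 and TXN kept theirs under 2 of the 4, GPX1 and SOD1 under 1 and CAT under 0. For these genes the closest score thus depends on the scaling. GPX1 was closest to the NK and cytotoxic score (r = 0.60, adjusted permutation p = 0.00315; rho = 0.66, adjusted p = 0.0028; r = 0.49 without the 2 farthest mares), but under quantile normalisation r was 0.37 (adjusted p = 0.118) and 0.33 with the values of the deposited series table. PRDX1 and PRDX3 were closest to the erythroid score, at r = 0.50 (adjusted p = 0.022) and r = 0.47 (adjusted p = 0.0313). Under the 4 other scalings r ran from 0.32 to 0.58 for PRDX1, short of the threshold under 3, and from 0.40 to 0.50 for PRDX3, short of it under 2. PRDX2 was closest to the T cell score (r = 0.51, adjusted p = 0.0215) while its r with the erythroid score missed the threshold (r = 0.36, adjusted p = 0.103). The r of PRDX2 with the erythroid score was -0.04 in progressive mares and 0.79 in brutal mares, a difference that was not tested. The T cell score stayed its closest under all 4 other scalings, with r from 0.44 to 0.51, but the relation fell short of the threshold under 3 of them, and 10.12% of the other probes had an r as high. Without the 2 farthest mares r was 0.32, and without the array progressive 16, which had the lowest T cell score of the progressive mares (-1.66), it was 0.43 (adjusted p = 0.0581).

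SOD1 was closest to the NK and cytotoxic score (r = 0.48, adjusted permutation p = 0.0283), with r from 0.13 to 0.66 by slide, and passed under 1 of the 4 other scalings. Of the other probes 9.38% had an r as high. TXN had its largest r with the same score (0.37, adjusted permutation p = 0.0915), which missed the threshold. Its rho with that score passed (0.47, adjusted permutation p = 0.0302). On slide 4 alone r was -0.87, against 0.68, 0.64 and 0.63 on slides 1, 2 and 3. CAT passed the threshold with none of the 7 scores, its largest r being 0.17 with the monocyte score (adjusted p = 0.514).

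**Figure D4:**
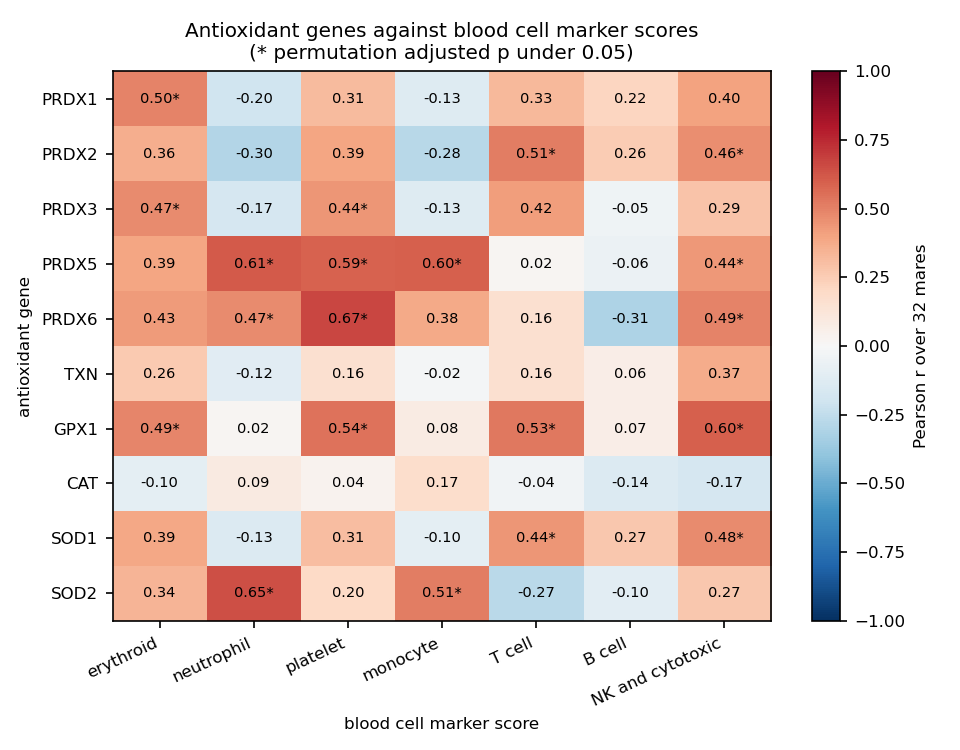
Pearson r over 32 mares between each of the 10 genes (rows) and 7 blood cell marker scores (columns), with * where the adjusted permutation p is under 0.05. SOD2, PRDX5 and PRDX6 are high against the neutrophil score (0.65, 0.61 and 0.47), GPX1 is high against several scores and CAT against none.

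Of 45 pairs of the 10 genes, 28 (62.2%) passed an adjusted permutation p of 0.05, 26 of them positive and 2 negative. The weakest had an r of 0.39 in size. Of all pairs of the other genes well above background on every array 26.7% were at least that large, 15.1% with a positive r, so covariation is widespread on these arrays. The closest pairs were PRDX1 with GPX1 (r = 0.84, rho = 0.81), GPX1 with SOD1 (r = 0.83, rho = 0.86) and PRDX1 with SOD1 (r = 0.81, rho = 0.80). Each had a permutation p of 1e-05, the smallest that the permutations can give, and an adjusted p of 7.5e-05. Without the 2 mares farthest from the median of the first-named gene r was 0.79, 0.80 and 0.78. Within the groups r of PRDX1 with GPX1 was 0.82 in progressive mares and 0.86 in brutal mares, and by slide it ran from 0.75 to 0.90.

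Catalase passed the threshold in 2 of its 9 pairs, both negative. It had the 3 lowest r, with TXN (r = -0.51, rho = -0.49, adjusted permutation p = 0.00774), with SOD1 (r = -0.42, rho = -0.40, adjusted p = 0.0302) and with PRDX1 (r = -0.25, adjusted p = 0.22), the last of which missed the threshold. Without the 2 farthest mares r was -0.43 with TXN and -0.43 with SOD1. The relation of CAT to TXN was -0.77 in progressive mares and -0.30 in brutal mares, and lay below 0 on 4 of 4 slides. With PRDX3, r of CAT was -0.55 in progressive mares and 0.55 in brutal mares. The differences between the groups in these r values were not tested. SOD2 was close to PRDX5 (r = 0.55) and PRDX6 (r = 0.41) while its r with PRDX3, which is also mitochondrial, was -0.00.

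**Figure D5:**
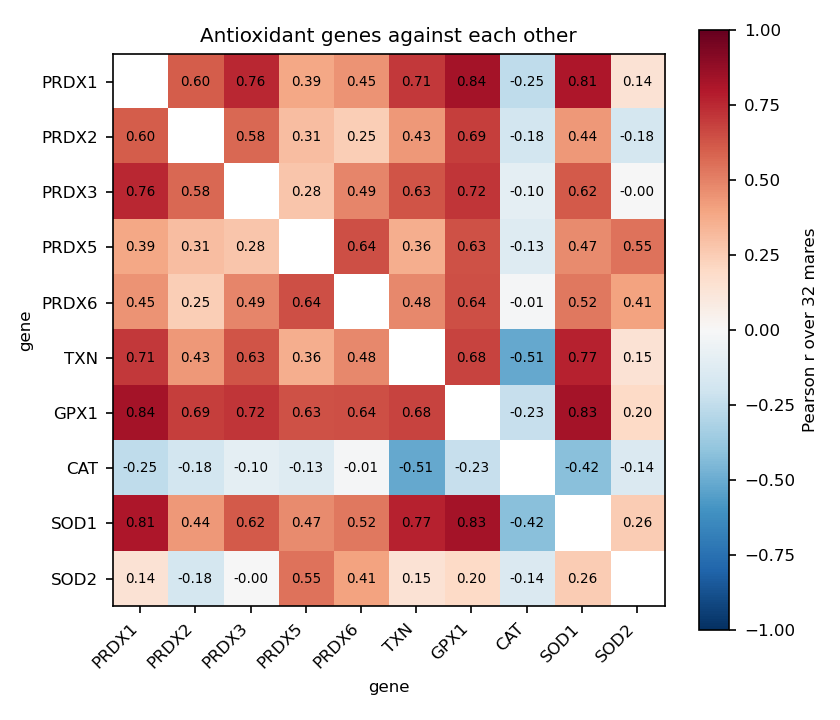
Pearson r over 32 mares between each 2 of the 10 genes (rows and columns), from -1 in blue to 1 in red. PRDX1, GPX1, SOD1, TXN and PRDX3 form a block of high r (0.62 to 0.84), the row of CAT is negative throughout (-0.51 to -0.01) and SOD2 is highest with PRDX5 (0.55).

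The brightness of the arrays moved with this pattern. Each gene was set against the array's 75th percentile intensity and against its share of spots well above background, a choice made after the data were seen. Of these 20 relations 8 passed the threshold, all negative and all with the 75th percentile, which is also the value subtracted from each log2 signal. The share of the other tested probes with such an r was not computed, so the count cannot be read as particular to these genes. The strongest were GPX1 at r = -0.79 (rho = -0.74), SOD1 at r = -0.77 (rho = -0.75) and PRDX1 at r = -0.76 (rho = -0.72). Without the 2 farthest mares r was -0.74, -0.71 and -0.69. For GPX1 r was -0.84 in progressive mares and -0.70 in brutal mares, and by slide it ran from -0.93 to -0.50. The permutation p of these 3 r values was 1e-05, the smallest that can be given, and 7e-05 after adjustment. Subtracting the percentile by itself moves r towards negative values. The permutations do not allow for that, so their p values are no evidence of a further relation. SOD2 (r = -0.39, adjusted permutation p = 0.0625) and CAT (r = 0.27, adjusted p = 0.262) missed the threshold. Under quantile normalisation, which forces all arrays to the same distribution, r with that percentile was -0.49 for GPX1, -0.63 for SOD1 and -0.49 for PRDX1. It was -0.44 for PRDX2, -0.54 for PRDX3, -0.34 for PRDX5 and -0.45 for PRDX6. TXN stood at -0.39, SOD2 at -0.19 and CAT at 0.42. The pair of PRDX1 and GPX1 then stood at r = 0.77, GPX1 and SOD1 at 0.70 and PRDX1 and SOD1 at 0.66, all past the threshold, while the number of pairs past it was 16. The median of that percentile was higher on progressive arrays (539.5) than on brutal arrays (488). The part of array brightness in these relations, and in the differences between the groups, was not tested further.

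The genes most like each member were sought among 7658 others by Pearson r over the same 32 arrays, which share 1 array and 1 scaling per mare, so these values are a description. GPX1 had 485 genes with r over 0.8, led by the RNA polymerase II subunit POLR2I (0.97), the dynactin subunit DCTN3 (0.96) and the DNA repair protein ERCC1 (0.96). Under quantile normalisation 89 genes were over 0.8. SOD1 had 210 such genes, led by the ribosomal proteins RPS25 (0.95) and RPL39 (0.95) and the ubiquitin ligase subunit RBX1 (0.94), and 39 under quantile normalisation. PRDX1 had 195, led by the mitochondrial ribosomal proteins MRPL11 (0.91) and MRPL40 (0.90) and by NOP10 (0.90), a protein of small nucleolar particles, and 15 under quantile normalisation. TXN had 61, led by NDUFA1 of respiratory complex I (0.93), the spliceosomal protein SNRPD1 (0.92) and the proteasome subunit PSMA2 (0.92).

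The remaining members had few close genes. PRDX3 was nearest to GLRX5, a mitochondrial glutaredoxin (0.85, and 0.84 under quantile normalisation), to DECR1, an enzyme of mitochondrial fatty acid oxidation (0.84), and to TIMM22, a mitochondrial import protein (0.83). PRDX6 was nearest to the phosphatase subunit PPP4C (0.87), the membrane-remodelling protein CHMP2A (0.86) and the gamma-secretase subunit PSENEN (0.85), which were 0.91 to 0.93 without the array progressive 16 and 0.67 to 0.73 under quantile normalisation. PRDX5 was nearest to the small GTPase RHOA (0.84) and the ferritin light chain FTL (0.84), at 0.67 and 0.65 under quantile normalisation. PRDX2 had 12 genes over 0.8, among them DFFA (0.84), the inhibitor of an apoptotic nuclease. SOD2 had 2, both transcripts without a gene name in the files. CAT had none, its nearest being the calpain inhibitor CAST (0.73), FNBP1 (0.72) and PDCD6IP (0.71), which act on membranes. Genes without a symbol among the nearest 3 are not named.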

How the data were processed

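Scanner files of 32 single-colour Agilent arrays (Cy3, 200 ng total RNA per mare) were used. The deposited intensity values and spot marks come from Agilent Feature Extraction 10.10.1.1, per the submitters' processing notes and per the file headers. The deposited series table holds log2 values of 25619 probes. Per the sources used here, the authors' normalisation of that table is unstated. Each column had its highest rank correlation with its own array (at least 0.996). Its scale is log2, and its direction is that of the intensities.

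Of 62976 spots, 1319 controls were left out, as were spots marked as outliers. None was saturated. From each log2 processed signal the log2 of its array's 75th percentile was subtracted, and replicate spots were averaged. A probe entered the tests if either group had at least 8 of its 16 arrays well above background. Group was the sole term of the two-sided fit (lmFit, then eBayes) in limma 3.58.1 under R 4.3.3, with Benjamini-Hochberg adjustment over all 26379 tested probes and a threshold of 0.05. The fit was checked on simulated data. Correlations used Python 3.11.15 with numpy 2.4.6 and two-sided tests with 100000 permutations, adjusted over 70 gene and score relations, 45 pairs or 20 brightness relations.

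The 10 members, the list of 46 genes, the markers and the tests were chosen with earlier results of these data known. Named genes are all members, the 3 with the smallest p in each direction of that list, the 3 most like each member, the 3 highest and 3 lowest pairs, and each member's largest score relation. One gene that this rule takes, and 1 probe sequence, are not reported here. Other pairs and scores were named after their values were seen. Alternatives were quantile normalisation, normexp (offset 50), scaling by the 75th percentile of detected probes only, the deposited log2 table, single slides or slides as a block, looser and stricter filters, composition covariates, array weights, robust and trended eBayes, a threshold of 0.10, the mean of a gene's probes, each group alone, and leaving out progressive 16.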

Additional observations from a re-analysis of the deposited data

How the results depend on the processing

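No paired analysis was possible because the labels pair no progressive with any brutal mare. No member passed an adjusted p of 0.05, or of 0.10, under any alternative run. With slide 4 alone, 1 of all tested probes passed. The cause of the changes given here was not tested. The number of members lower in progressive mares was 4 on slide 2 alone and 3 with the composition covariates, and their median was then 0.0346 and 0.0208. Of the 36 other antioxidant genes, 17 were lower on slide 1 alone and 15 with the covariates. Of all tested probes 45.9% were lower on slide 1, 51.7% on slide 2 and 52.6% with the covariates. Directions turned for PRDX1 on slide 1 (0.0744), for PRDX3 on slide 1 (0.1527) and slide 2 (0.0524), and for TXN on slide 1 (-0.0733), slide 2 (-0.0032) and slide 3 (-0.0108). They also turned on slide 2 for PRDX2 (0.1442), PRDX6 (0.0419), SOD1 (0.1045) and SOD2 (0.0273), on slide 3 for PRDX2 (0.0006) and on slide 4 for CAT (-0.0413). With the covariates they turned for PRDX2 (0.0435), PRDX3 (0.0128), PRDX5 (0.0027), PRDX6 (0.1239) and SOD1 (0.0288), under quantile normalisation for SOD1 (0.0017), and without progressive 16 for PRDX2 (0.0117). A slide alone holds 8 mares.

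The number of score relations past the threshold was 13 under quantile normalisation, 6 with the 75th percentile of detected probes, 12 with the series table, and 3 in progressive and 3 in brutal mares alone, which have 16 mares each. The number of pairs was 16 under quantile normalisation, 17 with the series table, 17 in progressive mares and 14 in brutal mares. The relation of PRDX3 to the erythroid score was -0.0426 on slide 1. That of CAT to the monocyte score was -0.2423 in progressive mares and -0.0126 on slide 2. The relation of TXN to the NK and cytotoxic score was -0.869 on slide 4 (exact permutation p = 0.00756, not adjusted). On slides 1, 2 and 3 it was 0.6806, 0.638 and 0.6284, so the turn rests on the 8 mares of 1 slide. All member probes were well above background on every array.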
